A study of Mus musculus with 24 samples.

Results

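The genes described here are the 5 subunits of the transcription factor NF-κB (*Nfkb1*, *Nfkb2*, *Rel*, *Rela* and *Relb*) and 5 genes of the inhibitor of κB (IκB) family (*Nfkbia*, *Nfkbib*, *Nfkbie*, *Nfkbiz* and *Bcl3*). They were taken by gene symbol, and all 10 were found among the 24411 genes of each deposited expression table. The IκB family genes are called inhibitor genes below, after the family name alone. NF-κB is a dimer of subunits that IκB proteins hold in the cytoplasm of resting cells. Receptors for interleukin 1, tumour necrosis factor and bacterial lipopolysaccharide (LPS) release it through the IκB kinase (IKK) complex, which marks the inhibitor for degradation. Several subunit and inhibitor genes are themselves known targets of NF-κB, and in glia the pathway is known for driving cytokine, chemokine and complement genes.

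Bulk RNA sequencing had measured primary mouse glia in culture, each group with 3 libraries. Astrocytes were immunopanned from postnatal forebrain cortex, with microglia, endothelial and oligodendrocyte lineage cells panned away, and were cultured from wild type (WT) mice or from *SOD1G93A* mice, a model of amyotrophic lateral sclerosis (labelled Sod1G93A) that carries a mutant human *SOD1* transgene under its own promoter. They received PBS (quiescent) or a mixture of 3 ng/mL of IL-1α with 30 ng/mL of TNFα and 400 ng/mL of C1q (activated), in serum-free medium with HBEGF. Microglia were sorted with Cd11b beads from the whole brain of postnatal mice older than those used for astrocytes. They were kept in a different serum-free medium with TGF-β2, IL-34 and cholesterol. There, WT cells received PBS (quiescent) or LPS at 50 ng/mL, and *SOD1G93A* cells LPS at 50 ng/mL. The 7 groups are therefore quiescent and activated astrocytes of both genotypes, quiescent WT microglia, and LPS-treated microglia of both genotypes. The quiescent *SOD1G93A* microglia of the series, 3 libraries, had no values in the sources used here and were not analysed. Whether the LPS response of microglia differs between genotypes was therefore not tested. The cells were purified out of their tissue, though genes of other cell types were present, as given below. The length of treatment is not given in the sources used here. The sources read here do not state whether replicates are separate animals or separate cultures. The p-values below therefore measure only the spread between the samples labelled as replicates.

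The values are read counts per gene divided by a size factor for each library, called normalized counts below. The reads per library were 2016139, 3637657 and 9258718 in WT quiescent astrocytes, 9526331, 7251063 and 3292225 in *SOD1G93A* quiescent astrocytes, 5047999, 6768201 and 5749391 in WT activated astrocytes, and 3721779, 3929272 and 2135439 in *SOD1G93A* activated astrocytes. Those of microglia held 10157188, 2550560 and 6940651 reads in the quiescent WT group, 8121620, 5098168 and 4674300 in the WT LPS group, and 5917006, 11570122 and 4042840 in the *SOD1G93A* LPS group. The thinnest member values are those of *Rel* and *Bcl3* in WT quiescent astrocyte replicate 1, with 1 read each. The lowest correlations of a library with the mean of its fellow replicates, over log2 CPM, were 0.9747 in *SOD1G93A* LPS microglia replicate 3, 0.9786 and 0.9787 in replicates 3 and 1 of the WT quiescent astrocytes, and 0.981 in WT LPS microglia replicate 1. Replicate 3 of the *SOD1G93A* LPS microglia was also the lowest of its group for 8 of the 10 members, against 34.0% of all genes. Replicate 1 of the WT quiescent astrocytes, with the fewest reads of all libraries, had the lowest value of its group for 7 members, against 36.3% of all genes. So did replicate 2 of the WT quiescent microglia for 7 members, against 45.6% of all genes. Replicate 3 of the WT activated astrocytes was the lowest for 6 members, against 38.6% of all genes. Several member values that moved without one of these libraries are given below with and without it, but not all of them.

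The labelled cell types were checked against their marker genes, summed as counts-per-million (CPM, reads scaled by the reads of the library) and given as the mean of 3 libraries. The 10 astrocyte markers summed to 5544 CPM in WT quiescent, 4678 in *SOD1G93A* quiescent, 4558 in WT activated and 4484 in *SOD1G93A* activated astrocytes, and to 163, 197 and 184 CPM in WT quiescent, WT LPS and *SOD1G93A* LPS microglia. *Slc1a3*, a glutamate transporter, was their most abundant gene in astrocytes, and *S100b* had 0 reads in WT LPS microglia. The 10 microglia markers summed to 10231, 3284 and 4180 CPM in the microglia groups, in that order, and to 212, 312, 214 and 186 CPM in the astrocyte groups. Each list summed higher in every group of its own cell type than in any group of the other, so that the labels and the markers match. No marker of its own cell type was at 0 reads in any group, but no microglia marker was at 0 reads in an astrocyte group either. With LPS, 7 of the 10 microglia markers fell (median log2 fold change of the list -1.89). Fewer cells of a type and less RNA per cell cannot be told apart in such data, here or below.

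Genes of other cell types were present as well. The 8 oligodendrocyte lineage markers summed to 2887, 3272, 1050.5 and 1038 CPM in the astrocyte groups and to 1339, 106 and 183 CPM in the microglia groups. Their most abundant gene was the transcription factor *Olig1* in astrocytes (1799 CPM in the WT quiescent group) and the proteoglycan *Cspg4* in microglia (1229 CPM in the WT quiescent group), while the myelin gene *Mog* had 0 reads in WT quiescent astrocytes, WT quiescent microglia and *SOD1G93A* LPS microglia. The 6 neuron markers summed to 890.1, 964, 419 and 406 CPM in astrocytes, most of it *Map2* (872 CPM in the WT quiescent group), and to 15.8, 11.6 and 12.1 CPM in microglia. The endothelial list reached 10.7, 7.02, 146 and 115 CPM in astrocytes and 72.5, 50.7 and 43.9 CPM in microglia, with *Flt1* most abundant in activated astrocytes and *Cldn5* at 0 reads in every group. Pericyte and fibroblast markers stood at 12.5, 8.71, 50.0 and 36.6 CPM in astrocytes and 7.46, 18.3 and 12.98 CPM in microglia. Whether cells of these types were present, and what they would contribute to the member genes, was not tested.

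All 5 subunits were detected in every group, and each had its highest mean in LPS-treated microglia. Levels are given here as mean CPM ± SD of 3 libraries, from the lowest group to the highest, with positions on the mouse build GRCm38. Overlap of libraries refers to CPM for these levels and to normalized counts in the tests further on, and the scales can differ on it. *Nfkb1* (chr3:135584655-135691547, minus strand) encodes a precursor that is processed to a DNA-binding subunit without a transactivation domain. Its level was 41.6 ± 3.53 in WT quiescent astrocytes, 46.8 ± 1.26 in *SOD1G93A* quiescent astrocytes, 158 ± 3.34 in WT quiescent microglia, 189 ± 8.41 in *SOD1G93A* activated astrocytes, 202 ± 12.6 in WT activated astrocytes, 401 ± 1.51 in WT LPS-treated microglia and 404 ± 33.4 in *SOD1G93A* LPS-treated microglia. Neighbours in this order overlapped between genotypes in activated astrocytes and in LPS-treated microglia, and nowhere else. *Nfkb2* (chr19:46304320-46312385, plus strand) encodes the precursor whose processing marks the non-canonical pathway. It stood at 29.0 ± 3.61 in *SOD1G93A* quiescent astrocytes, 31.1 ± 2.18 in WT quiescent astrocytes, 80.9 ± 3.37 in WT quiescent microglia, 127 ± 7.51 in *SOD1G93A* activated astrocytes, 128 ± 6.32 in WT activated astrocytes, 515 ± 95.7 in *SOD1G93A* LPS-treated microglia and 609 ± 16.5 in WT LPS-treated microglia. The astrocyte groups of equal treatment overlapped, and the remaining steps did not. *Rel* (chr11:23736847-23770970, minus strand) encodes c-Rel, a transactivating subunit best known from lymphoid and myeloid cells. Its level ran from 3.00 ± 2.20 in WT quiescent astrocytes, 5.76 ± 2.30 in *SOD1G93A* quiescent astrocytes, 6.10 ± 1.25 in WT activated astrocytes, 7.07 ± 1.27 in *SOD1G93A* activated astrocytes, 26.1 ± 0.999 in WT quiescent microglia, 113 ± 39.0 in WT LPS-treated microglia and 113 ± 18.6 in *SOD1G93A* LPS-treated microglia. All 4 astrocyte groups overlapped with their neighbours for *Rel*, as did the LPS groups, while quiescent microglia lay apart on both sides. *Rela* (chr19:5637483-5648130, plus strand) encodes the transactivating subunit of the canonical dimer. Its mean level was 76.3 ± 4.77 in *SOD1G93A* quiescent astrocytes, 78.9 ± 8.38 in WT quiescent astrocytes, 140.1 ± 13.9 in *SOD1G93A* activated astrocytes, 156 ± 2.29 in WT activated astrocytes, 252 ± 3.57 in WT quiescent microglia, 308 ± 40.4 in *SOD1G93A* LPS-treated microglia and 381 ± 9.54 in WT LPS-treated microglia. Of these steps, those between the quiescent astrocyte groups alone overlapped. *Relb* (chr7:19606217-19629438, minus strand), the usual partner of the *Nfkb2* product, stood at 7.02 ± 0.631 in WT quiescent astrocytes, 7.05 ± 0.374 in *SOD1G93A* quiescent astrocytes, 23.0 ± 2.94 in WT quiescent microglia, 51.7 ± 7.25 in *SOD1G93A* activated astrocytes, 53.6 ± 3.98 in WT activated astrocytes, 55.8 ± 7.78 in *SOD1G93A* LPS-treated microglia and 66.6 ± 6.65 in WT LPS-treated microglia. Activated astrocytes and LPS-treated microglia overlapped along a chain of 4 groups for *Relb*, whereas quiescent microglia lay apart from both sides.

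The inhibitor genes spread over a wider range of levels. *Nfkbia* (chr12:55489410-55492647, minus strand) encodes IκBα, which is degraded upon stimulation and then made anew. Its level was 14.5 ± 2.32 in WT quiescent astrocytes, 20.7 ± 3.77 in *SOD1G93A* quiescent astrocytes, 64.3 ± 4.06 in WT quiescent microglia, 306 ± 7.92 in *SOD1G93A* activated astrocytes, 335 ± 22.7 in WT activated astrocytes, 342 ± 47.8 in *SOD1G93A* LPS-treated microglia and 409.7 ± 44.7 in WT LPS-treated microglia. Overlap was seen between the quiescent astrocyte groups and between WT activated astrocytes and *SOD1G93A* LPS-treated microglia. *Nfkbib* (chr7:28758251-28767512, minus strand) encodes IκBβ, a second cytoplasmic inhibitor. It ran from 23.0 ± 2.91 in *SOD1G93A* quiescent astrocytes, 23.9 ± 3.27 in WT quiescent astrocytes, 42.6 ± 0.206 in WT activated astrocytes, 46.6 ± 3.20 in *SOD1G93A* activated astrocytes, 51.8 ± 4.28 in WT quiescent microglia, 253 ± 69.1 in *SOD1G93A* LPS-treated microglia and 357 ± 45.6 in WT LPS-treated microglia. Neighbours overlapped between the quiescent astrocyte groups and between *SOD1G93A* activated astrocytes and quiescent microglia, and both LPS groups stood far above the rest. *Nfkbie* (chr17:45555703-45563169, plus strand) encodes IκBε, a further cytoplasmic inhibitor. Its means were 6.46 ± 1.23 in WT quiescent astrocytes, 8.72 ± 1.23 in *SOD1G93A* quiescent astrocytes, 15.1 ± 0.499 in WT quiescent microglia, 35.4 ± 0.893 in *SOD1G93A* activated astrocytes, 36.4 ± 3.28 in WT activated astrocytes, 69.9 ± 20.99 in *SOD1G93A* LPS-treated microglia and 105 ± 1.67 in WT LPS-treated microglia. The genotypes overlapped in quiescent and in activated astrocytes, but not after LPS. *Nfkbiz* (chr16:55811375-55838899, minus strand) encodes IκBζ, a nuclear member known to be needed for a subset of secondary response genes. It stood at 23.5 ± 2.75 in WT quiescent astrocytes, 30.5 ± 7.12 in WT quiescent microglia, 33.5 ± 6.59 in *SOD1G93A* quiescent astrocytes, 242 ± 11.6 in WT activated astrocytes, 267 ± 1.19 in *SOD1G93A* activated astrocytes, 629 ± 55.1 in WT LPS-treated microglia and 635 ± 86.8 in *SOD1G93A* LPS-treated microglia. The 3 quiescent groups overlapped along the order, as did the LPS groups. *Bcl3* (chr7:19808462-19822770, minus strand) encodes a nuclear member that binds dimers of the *Nfkb1* and *Nfkb2* products on DNA. Its level was 0.637 ± 0.199 in WT quiescent astrocytes, 1.21 ± 0.589 in *SOD1G93A* quiescent astrocytes, 7.54 ± 0.718 in WT quiescent microglia, 42.2 ± 1.32 in *SOD1G93A* activated astrocytes, 52.6 ± 3.53 in WT activated astrocytes, 67.9 ± 12.997 in *SOD1G93A* LPS-treated microglia and 85.6 ± 11.6 in WT LPS-treated microglia. It was nearly silent in quiescent astrocytes, whose groups overlapped, and WT activated astrocytes overlapped along the order with the LPS groups.

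Compared per kilobase of exon within CPM, the members changed rank with state. In WT quiescent astrocytes *Rela* led at 29.1 per kilobase, followed by *Nfkbib* at 11.2 and *Nfkb1* at 10.1, with *Rel* at 0.401 and *Bcl3* at 0.344 last. In WT activated astrocytes *Nfkbia* led at 212, ahead of *Nfkbiz* at 58.6, *Rela* at 57.5 and *Nfkb1* at 49.0, and *Rel* was last at 0.817. WT quiescent microglia also had *Rela* first, at 92.8, ahead of *Nfkbia* at 40.7 and *Nfkb1* at 38.3. After LPS, WT microglia had *Nfkbia* at 259.6, *Nfkbib* at 168, *Nfkbiz* at 152, *Nfkb2* at 144 and *Rela* at 140.2, with *Rel* last at 15.2. *Rela* thus led among the members in both quiescent WT groups and *Nfkbia* in both activated ones. The summed level of the 5 inhibitor genes over that of the 5 subunit genes, on the same scale, was 0.581 (0.567 to 0.590) in WT and 0.722 (0.688 to 0.768) in *SOD1G93A* quiescent astrocytes, with the range over 3 libraries. It was 2.06 (2.01 to 2.11) and 2.09 (2.06 to 2.13) in the activated WT and *SOD1G93A* astrocytes. In microglia the ratio was 0.504 (0.482 to 0.522) in the quiescent group, 1.57 (1.48 to 1.72) in the WT LPS group and 1.47 (1.31 to 1.56) in the *SOD1G93A* LPS group. Inhibitor RNA was the smaller of the sums in each quiescent library and the larger in each stimulated one. No test was run on this ratio, and exon lengths were taken from all exons of the basic set of annotated transcripts.

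**Figure D1:**
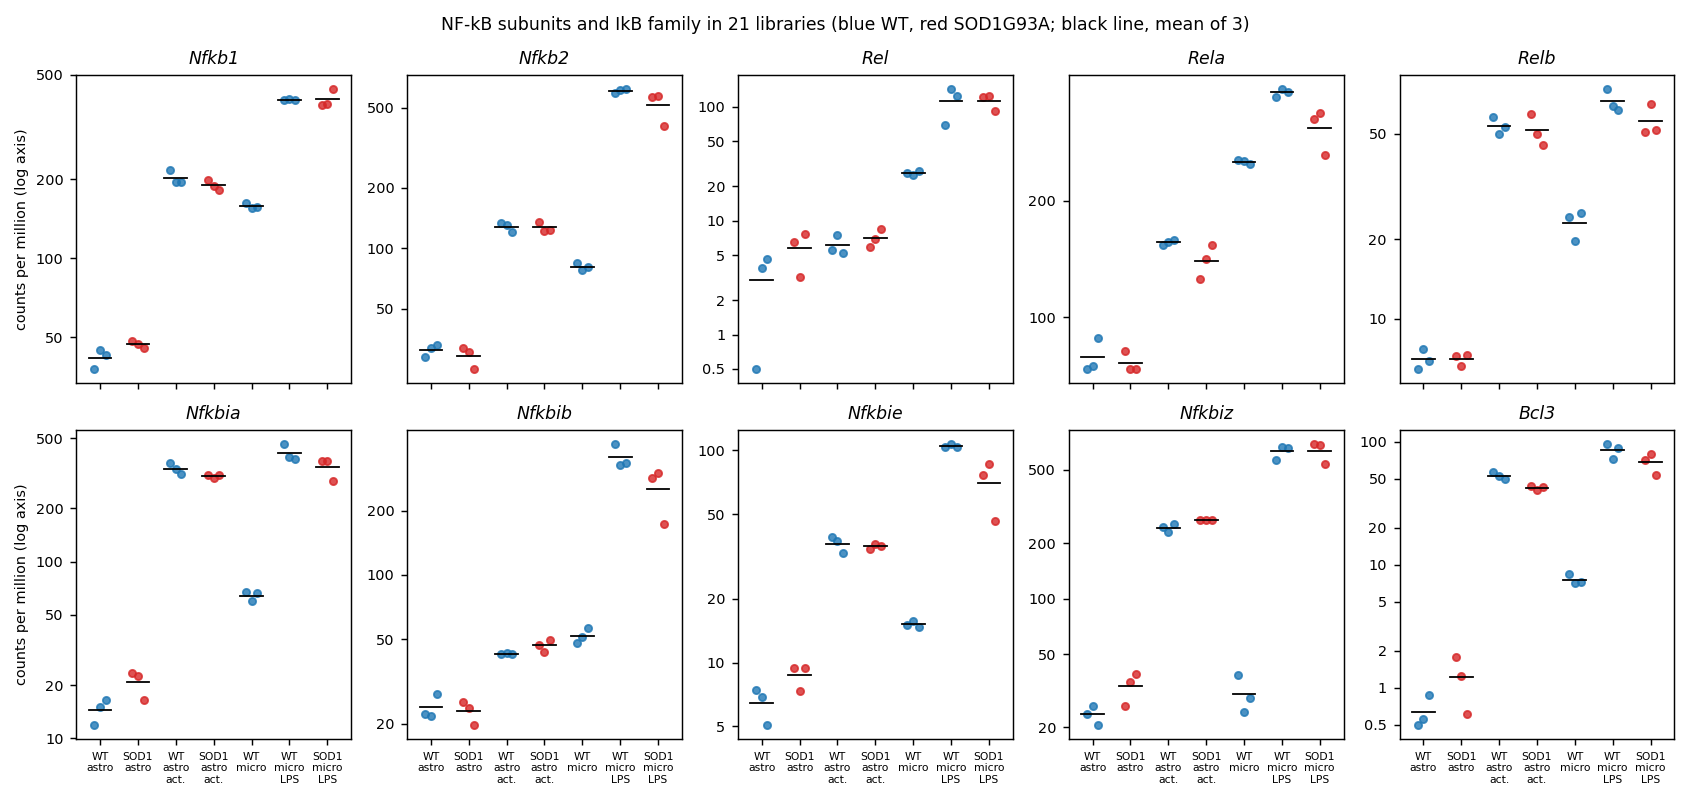
Level of each of the 10 members in the 7 groups, as CPM on a log axis, with a point for each library and a bar at the mean of 3 libraries. *Bcl3* and *Rel* each have their lowest mean in WT quiescent astrocytes, and each subunit has its highest mean in LPS-treated microglia.

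Activation of WT astrocytes, compared with quiescent WT astrocytes, raised most of the family. At an adjusted p under 0.001 and more than 2-fold, the limits used for every call below, 4 of the 5 subunits and 4 of the 5 inhibitor genes rose and none fell, 8 of 10 members against 6.0% of the 12336 genes tested that were called higher. At an adjusted p under 0.05 with any fold change 9 members were higher, against 19.1% of genes, and all 10 had every activated library above every quiescent one, against 25.7% of genes. The median log2 fold change was 2.06 over the subunits and 3.38 over the inhibitor genes, beside 0.01 over all genes tested. The test was limma with an intensity trend, and DESeq2 and edgeR each called 7 members. With a filter of at least 10 normalized counts in every library, 7 of 8 members were called, and *Rel* and *Bcl3* were not tested.

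Among the subunits, *Nfkb1* stood at 177, 213 and 211 normalized counts in replicates 1 to 3 of the quiescent group and at 1054, 939.9 and 966 in the activated group. *Nfkb1* was thus higher in every activated library, and rose 4.92-fold (log2 fold change 2.30, SE 0.10, adjusted p = 3.7e-08). *Nfkb2* went from 135, 150.9 and 163 to 646, 630.4 and 599 normalized counts, in the same replicate order. *Nfkb2* libraries did not overlap, and the gene rose 4.16-fold (log2 fold change 2.06, SE 0.10, adjusted p = 8.3e-08). *Relb*, the partner of the *Nfkb2* product, had 30.3, 36.7 and 34.1 quiescent and 282, 241 and 263 activated normalized counts. *Relb* showed the largest fold change of the subunits, 7.58-fold (log2 fold change 2.92, SE 0.14, adjusted p = 7.4e-08), again without overlap. *Rela* had 345, 357 and 438 quiescent and 748, 755 and 785 activated normalized counts. The groups were apart, but the 2.02-fold rise of *Rela* (log2 fold change 1.01, SE 0.10, adjusted p = 1.6e-05) lay at the 2-fold limit, with a 95% interval of 0.78 to 1.24. With DESeq2 the log2 fold change was 0.98, with edgeR 0.99, with quantile normalization 0.98, without WT quiescent replicate 1 it was 0.95, without WT quiescent replicate 2 0.97, and without WT activated replicate 3 0.99, so that *Rela* was not called in any of these. *Rel* had 2.33, 18.4 and 22.9 quiescent and 27.0, 36.4 and 25.9 activated normalized counts. The low quiescent replicate 1 of *Rel* rests on 1 read in the library with the fewest reads, and the remaining quiescent values come near the activated ones. *Rel* did not pass (log2 fold change 1.40, SE 0.62, 95% interval 0.03 to 2.76, adjusted p = 0.0994), and without that library its log2 fold change was 0.50 with an adjusted p of 0.1499, whereas without replicate 3 it was 1.92; over its alternatives the adjusted p ran from 0.0116 to 0.231.

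Among the inhibitor genes, *Nfkbia* had 55.9, 72.2 and 81.1 normalized counts in the quiescent and 1748, 1604 and 1556 in the activated replicates. *Nfkbia* libraries were far apart between the groups, and the gene rose 23.4-fold (log2 fold change 4.55, SE 0.13, adjusted p = 2.1e-09). *Nfkbiz* had 112, 125 and 102 quiescent and 1192, 1109.7 and 1253 activated normalized counts. *Nfkbiz*, the gene of a nuclear IκB family member, was higher in each activated library and rose 10.4-fold (log2 fold change 3.38, SE 0.10, adjusted p = 3.0e-09). *Bcl3* had 2.33, 2.62 and 4.27 quiescent normalized counts, from 1, 2 and 8 reads, and 274, 252 and 244 activated ones. *Bcl3* passed the filter on the mean through its activated libraries, and was higher in each of them (log2 fold change 6.01, SE 0.24, adjusted p = 1.6e-08). The size of this change depends on the pseudocount with so few quiescent reads, as the log2 value was 6.21 with a pseudocount of 0.5 and 5.03 with 5. *Nfkbie* had 34.9, 32.8 and 25.1 quiescent and 190.0, 180.4 and 162 activated normalized counts. *Nfkbie* was higher in each activated library and rose 5.63-fold (log2 fold change 2.49, SE 0.17, adjusted p = 7.3e-07). *Nfkbib* had 105, 104 and 137 quiescent and 207, 207 and 210.4 activated normalized counts. *Nfkbib* groups did not overlap either, but the 1.82-fold difference (log2 fold change 0.86, SE 0.13, adjusted p = 3.3e-04) was under 2-fold and was not called.

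The other genes of the pathway follow by list. *Birc3*, *Traf1* and *Tnfaip3* are among the textbook targets as well as in another list, and the lists were not tested against each other. Of 11 genes of the IKK complex and upstream kinases, 0 were called with limma (median log2 fold change 0.15), 4 had an unadjusted p under 0.05, against 5774 of the 12336 genes, and DESeq2 called 0 and edgeR 1. Of 20 receptor adaptors and ubiquitin ligases 4 rose (median 0.39): *Birc3*, a ubiquitin ligase of the TNF receptor complex, by 3.37 on the log2 scale, *Myd88*, the adaptor of IL-1 and Toll-like receptors, by 1.94, *Irak2* by 1.56 and *Traf2* by 1.11. Of 7 receptors of the stimuli 5 rose with limma and DESeq2 and 6 with edgeR (median 1.38), among them *Il1r1* by 2.83 and its co-receptor *Il1rap* by 2.50, with *Tlr4* at 1.38, *Cd14* at 1.36 and *Tnfrsf1a*, a TNF receptor, at 1.29. Of 14 other brakes of the pathway 13 were tested and 3 rose (median 0.38): the RNase gene *Zc3h12a* by 4.17, the deubiquitinase gene *Tnfaip3* by 2.86 and its partner *Tnip1* by 2.08. Of 30 textbook NF-κB target genes 29 were tested and 19 rose (median 2.55). *Mmp9* had a fitted 6.78 over 0 to 4 quiescent reads, so that its size is uncertain. Large changes over more reads were those of *Lcn2* by 6.70, *Ccl2* by 6.58, *Cxcl1* by 6.35 and the complement gene *C3* by 6.30. *Lcn2* went from a mean of 146 ± 31.7 normalized counts to 15043 ± 769 (SD, n = 3 libraries). None of the genes in these lists fell by the test. Markers of cell types moved in this comparison as well. The 10 astrocyte markers had a median log2 fold change of -0.81, with 7 lower at an adjusted p under 0.05 and 2 of them called, and of 7 oligodendrocyte lineage markers tested 3 were called lower (median -0.60). The fall of the neuron sum was that of *Map2*, from 872 to 384 CPM, while the 4 neuron markers tested had a median of 0.73, with 1 called higher and 1 lower. The rise of the endothelial sum was that of *Flt1*, from 8.85 to 143.6 CPM, and of 4 pericyte and fibroblast markers tested 2 were called higher (median 2.33). The 9 microglia markers tested had a median of 0.01, with 0 called by limma, DESeq2 or edgeR and 0 at an unadjusted p under 0.05. The part of these markers' cells in the results was not tested.

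Treatment of WT microglia with LPS, against quiescent WT microglia, raised the family as well. All 5 inhibitor genes and 4 of 5 subunits rose, 9 of 10 members against 10.2% of the 10866 genes tested that were called higher. With an adjusted p under 0.05 at any fold change 10 members were higher, against 28.6% of genes, and 10 had libraries that did not overlap, against 32.3% of genes. Medians were 1.75 over the subunits and 2.99 over the inhibitor genes, beside 0.00 over all genes tested, and DESeq2 and edgeR each called 9 members.

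*Nfkb2*, the precursor gene of the non-canonical pathway, had 435, 417 and 425 normalized counts in quiescent and 3529, 3837 and 3799.7 in LPS-treated replicates. *Nfkb2* had no overlap between the groups and the largest fold change of the subunits, 8.73-fold (log2 fold change 3.13, SE 0.08, adjusted p = 3.0e-10). *Nfkb1* had 834, 835 and 823 quiescent and 2393, 2519 and 2429 LPS normalized counts. *Nfkb1* replicates lay close together within each group, and the gene rose 2.94-fold (log2 fold change 1.56, SE 0.07, adjusted p = 2.9e-08). *Rel* had 135, 135 and 142 quiescent and 416, 908 and 762 LPS normalized counts. *Rel* varied widely after LPS, replicate 1 being the lowest, yet every LPS library was above the quiescent ones, and it rose 4.78-fold (log2 fold change 2.26, SE 0.23, adjusted p = 1.4e-05). *Relb* had 125, 105 and 132 quiescent and 442, 401 and 375 LPS normalized counts. *Relb* rose 3.35-fold (log2 fold change 1.75, SE 0.12, adjusted p = 5.7e-07) with the groups well apart. *Rela* had 1315, 1357 and 1303 quiescent and 2210.5, 2441 and 2326 LPS normalized counts. *Rela* was higher in each LPS library, but its 1.75-fold difference (log2 fold change 0.81, SE 0.08, adjusted p = 6.6e-06) was under 2-fold and was not called.

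For the inhibitors, *Nfkbiz* had 197, 130.4 and 152 quiescent and 3372, 4155 and 4009 LPS normalized counts. *Nfkbiz* was the member with the largest fold change in microglia, 24.1-fold (log2 fold change 4.59, SE 0.15, adjusted p = 1.7e-09). *Bcl3* had 43.1, 37.9 and 37.8 quiescent and 566, 455 and 543 LPS normalized counts. *Bcl3* was already present in quiescent microglia, and rose 12.8-fold (log2 fold change 3.68, SE 0.13, adjusted p = 3.2e-09). *Nfkbia* had 346, 319.8 and 347 quiescent and 2749.5, 2438 and 2307 LPS normalized counts. *Nfkbia* rose 7.37-fold (log2 fold change 2.88, SE 0.09, adjusted p = 1.7e-09), with no overlap of libraries. *Nfkbib*, the IκBβ gene, had 248, 273 and 297 quiescent and 2444, 2057 and 2030.1 LPS normalized counts. *Nfkbib* rose 7.95-fold (log2 fold change 2.99, SE 0.10, adjusted p = 3.5e-09) with every LPS library above every quiescent one. *Nfkbie* had 77.6, 84.2 and 77.2 quiescent and 621, 669 and 630.2 LPS normalized counts. *Nfkbie* rose 7.95-fold (log2 fold change 2.99, SE 0.10, adjusted p = 2.3e-09), with tight replicates in each group.

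In the rest of the pathway, 2 of 11 IKK and upstream kinase genes rose with LPS (median log2 fold change 0.32): *Ikbke*, a kinase related to the IKK subunits, with a fitted 6.61 that rests on 0 to 19 quiescent reads, and its relative *Tbk1* by 1.07. Of the 20 adaptors and ubiquitin ligases 8 rose (median 0.76), led by *Traf1* at 7.07, *Malt1* at 3.47 and *Birc3* at 3.23, followed by *Traf2* at 1.83 and *Myd88* at 1.72. Of the 7 receptors 4 rose (median 1.15): *Tnfrsf1b*, a TNF receptor, by 4.61, the LPS co-receptors *Cd14* by 2.47 and *Ly96* by 1.60, and *Il1rap* by 1.01. Of the 14 other brakes 6 rose (median 0.68), with *Zc3h12a* at 4.74, *Irak3* at 4.55, *Tnfaip3* at 4.28, *Nfkbid*, a further nuclear IκB gene, at 2.03 and *Tnip1* at 1.66. Of the 30 textbook targets 28 were tested, 24 rose and 1 fell (median 4.67). *Nos2*, the inducible nitric oxide synthase gene, rose by 7.65, *Saa3* by 7.58, the chemokine gene *Ccl5* by 7.49, *Il1b* by 7.33 and *Il6* by 7.26, while the cyclin gene *Ccnd1* had a log2 fold change of -3.83. Besides the fall of the microglia markers given above, 2 of 4 oligodendrocyte lineage markers tested were called lower (median -1.05), 2 of 9 astrocyte markers higher (median -0.06), 2 of 3 endothelial markers higher and 1 lower (median 1.01), and 1 of 4 pericyte and fibroblast markers higher (median 1.56). The part of these markers' cells in the LPS results was not tested.

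**Figure D2:**
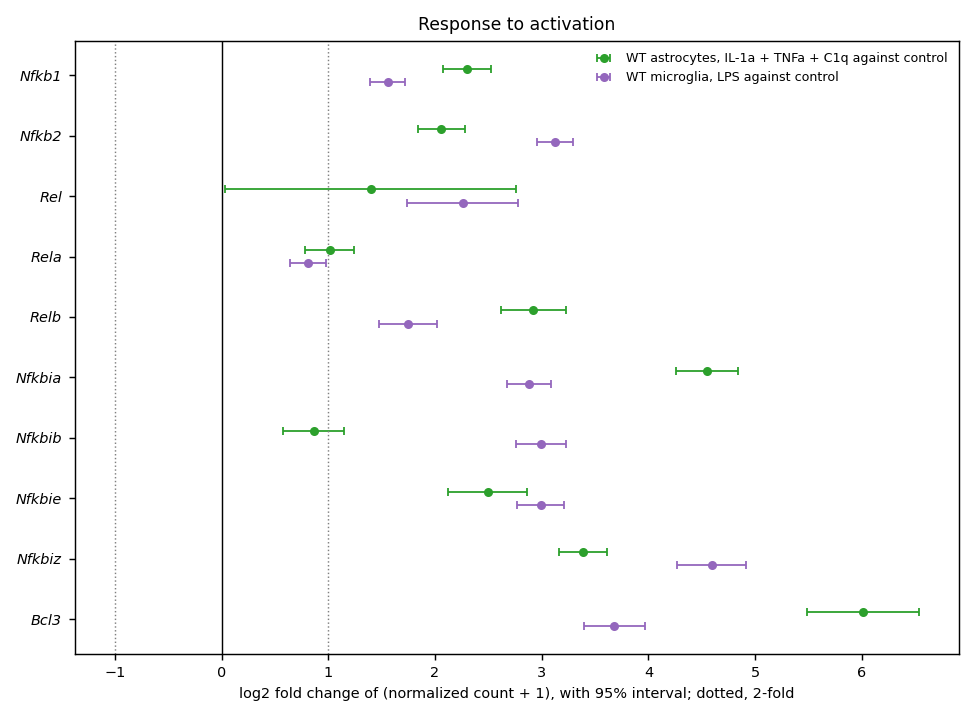
Log2 fold change of each member in activated WT astrocytes and in LPS-treated WT microglia, each against its own quiescent group, with 95% intervals from 3 libraries a group. *Bcl3* has the largest astrocyte value (6.01) and *Nfkbiz* the largest microglia value (4.59).

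The responses of the cell types to their stimuli were then compared directly, as the log2 response of microglia to LPS minus that of astrocytes to the cytokine mixture, in a fit of 12 WT libraries. Of the 10 members 6 differed by more than 2-fold: 3 responded more in microglia, where 6.73% of the 12334 genes tested had a called difference above 0, and 3 more in astrocytes, where 8.44% of genes had one below 0. *Nfkbib* had the largest difference in favour of microglia, 2.15 (SE 0.18, adjusted p = 2.6e-07), followed by *Nfkbiz* at 1.24 (SE 0.19, adjusted p = 1.2e-04) and *Nfkb2* at 1.09 (SE 0.13, adjusted p = 8.8e-06). The larger astrocyte responses were those of *Bcl3* at -2.25 (SE 0.26, adjusted p = 9.8e-06), *Nfkbia* at -1.64 (SE 0.18, adjusted p = 4.8e-06) and *Relb* at -1.15 (SE 0.18, adjusted p = 1.8e-04). With a pseudocount of 5 the difference of *Bcl3* was -1.30, smaller than the -1.56 of *Nfkbia*. *Nfkb1* also responded more in astrocytes by a log2 difference of -0.72 (SE 0.13, adjusted p = 3.8e-04), but by less than 2-fold. *Nfkbie*, at 0.53, met neither limit (SE 0.18, adjusted p = 0.0316, over alternatives from 0.00387 to 0.145). *Rela*, at -0.18 (SE 0.14, adjusted p = 0.324), and *Rel*, at 0.91 (SE 0.75, adjusted p = 0.358), did not pass either. Without WT quiescent astrocyte replicate 1 the difference for *Rel* was 1.80 (adjusted p = 0.00113), over 0.00113 to 0.699 among its alternatives, which is past the fold limit and short of the p limit, and without replicate 3 it was 0.38. DESeq2 and edgeR each called 6 members too, but with the replicate number as a block 4 were called, without *Relb* (adjusted p = 0.00131) and *Nfkbiz* (adjusted p = 0.00128). The stimulus, the medium, the way of purification, the tissue taken and the age of the mice differ along with the cell type. These cannot be told apart.

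In the other lists, the response was larger in microglia for 1 of 11 IKK and upstream kinase genes (*Ikbke*, 5.38, SE 0.96) and for 3 of 20 adaptors and ligases (*Traf1*, 5.59, SE 1.05, *Malt1*, 3.21, and *Rnf31*, 1.03). Over all genes tested the called shares were 6.73% above 0 and 8.44% below 0, so that the kinase count is near the share of all genes. Receptors split, with *Tnfrsf1b* at 4.23 and *Cd14* at 1.14 larger in microglia and *Tlr4* at -1.50, *Il1rap* at -1.47 and *Tnfrsf1a* at -1.07 larger in astrocytes. Of the 14 other brakes, *Irak3* at 3.72 and *N4bp1* at 1.32 responded more in microglia and 0 more in astrocytes. Of 29 textbook targets tested, 12 had a called difference above 0 and 8 below 0 (median 1.45). The largest were *Il1b* at 7.39, *Ccl5* at 6.87, *Cd40* at 6.47 and *Nos2* at 6.41, after which came *Traf1*. Below 0 the largest were *Ptx3* at -5.20, *Ccnd1* at -3.88, which fell in microglia as given above, and *Lcn2* at -3.70. Median differences were 0.03 over the kinases, 0.20 over the adaptors, -1.07 over the receptors and 0.24 over the brakes, beside 0.00 over all genes tested. Marker lists differed as well: of 10 microglia markers 6 had a called difference below 0 (median -1.94), of 9 astrocyte markers tested 4 had one above 0 (median 0.96), and of 7 oligodendrocyte lineage markers tested 2 lay above and 2 below 0 (median 0.44). What these cells contribute to the differences of the members was not tested.

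The next question was whether astrocytes or microglia with the *SOD1G93A* transgene differed from WT cells of the same treatment. In quiescent astrocytes limma called 0 of the 9 members tested, and 0.0% of the 12271 genes; *Bcl3* had too few counts for the test. At an unadjusted p under 0.05 there were 2 members and 1068 genes, while DESeq2 called 7 genes and edgeR 0, with 0 members by either. Libraries did not overlap for 2 of the 10 members, *Nfkb1* and *Nfkbiz*, against 14.6% of genes in either direction, so that the share among members is close to that of all genes. *Nfkbiz* had 118, 129.9 and 106 normalized counts in WT and 132, 173 and 189.7 in *SOD1G93A* replicates. All *SOD1G93A* values of *Nfkbiz* were the higher ones, but the difference did not pass (log2 fold change 0.47, 95% interval 0.11 to 0.83, adjusted p = 0.484, over alternatives from 0.366 to 0.994). *Nfkbia* had 58.9, 75.2 and 84.1 WT and 117, 109.9 and 80.02 *SOD1G93A* normalized counts. *Nfkbia* replicate 3 of *SOD1G93A* fell within the WT range, and the log2 fold change was 0.48 (95% interval 0.05 to 0.92, adjusted p = 0.527). *Nfkbie* had a log2 fold change of 0.41, and *Nfkb1*, *Nfkb2*, *Rela*, *Relb* and *Nfkbib* lay between -0.13 and 0.15.

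*Rel* had 2.46, 19.1 and 23.8 WT and 32.8, 15.5 and 37.0 *SOD1G93A* normalized counts in quiescent astrocytes. The groups overlapped, and its log2 fold change of 1.21 (95% interval -0.29 to 2.71) was 0.31 without WT replicate 1 and 1.73 without replicate 3. *Bcl3* had 1, 2 and 8 reads in WT and 17, 9 and 2 reads in *SOD1G93A* libraries, which overlap once scaled (2.46, 2.73 and 4.42 against 8.99, 6.07 and 2.96 normalized counts). The microglia markers also had a median log2 fold change above 0 in this comparison, 0.57 over 9 tested. Of these, 0 were called by limma, DESeq2 or edgeR and 5 had an unadjusted p under 0.05. Their sums were 154, 210.3 and 270.02 CPM in WT and 338, 359 and 239 CPM in *SOD1G93A* libraries. Medians were below 0 for 10 astrocyte markers (-0.27, 3 at an unadjusted p under 0.05) and 4 neuron markers (-0.37, 2 of them so). The 1 endothelial marker tested was at -0.70, also with an unadjusted p under 0.05. Of 7 oligodendrocyte lineage markers tested DESeq2 called 1 (median of the list 0.14). The part of these markers' cells in the values of *Nfkbia* and *Nfkbiz* was not tested. Of the 73 other pathway genes tested limma, DESeq2 and edgeR each called 0, and 9 had an unadjusted p under 0.05. The list medians were -0.01 for subunits, 0.44 for inhibitors, 0.07 for kinases, 0.05 for adaptors, 0.22 for receptors, 0.10 for brakes and 0.49 for the 27 targets tested, beside 0.00 over all genes.

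In activated astrocytes 0 of 10 members were called between genotypes with limma, against 0.645% of the 12098 genes tested (78 genes, against 1 gene for limma without a trend), and DESeq2 and edgeR called 0 members too. At an unadjusted p under 0.05 there were 2 members, *Nfkbiz* and *Bcl3*, and 2464 genes. Normalized counts did not overlap for 3 of 10 members, against 24.1% of genes, again a share close to that of all genes. *Nfkbiz* had 1027, 958 and 1074 WT and 1148, 1147 and 1163 *SOD1G93A* normalized counts. Every *SOD1G93A* library was above the WT ones by a small margin, with a log2 fold change of 0.18 (95% interval 0.05 to 0.31, adjusted p = 0.0887, over alternatives from 0.0417 to 0.401). *Bcl3* had 236, 218 and 209 WT and 186, 176 and 185 *SOD1G93A* normalized counts. Here every *SOD1G93A* library was below the WT ones, with a log2 fold change of -0.27 (95% interval -0.47 to -0.08, adjusted p = 0.0799, over alternatives from 0.0681 to 0.355). *Nfkbib* had 179, 179 and 180.4 WT and 202, 187 and 216 *SOD1G93A* normalized counts, without overlap and 0.17 higher on the log2 scale in *SOD1G93A* cells (95% interval -0.03 to 0.36, adjusted p = 0.340). The other members, from *Rela* at -0.12 to *Rel* at 0.25, overlapped between genotypes in normalized counts, although *Rela* and *Nfkbia* did not in CPM. The intervals of *Nfkb1*, *Nfkb2*, *Relb*, *Nfkbia* and *Nfkbie* lay within -0.23 and 0.22.

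Of the 77 other pathway genes tested between activated genotypes 1 passed, by limma, DESeq2 and edgeR alike, and 17 had an unadjusted p under 0.05, against 2464 of the 12098 genes. *Cxcl10*, a chemokine gene among the targets, went from 489.7 ± 27.4 normalized counts in WT to 1611 ± 233 in *SOD1G93A* activated astrocytes (SD, n = 3 libraries), or 1.71 higher on the log2 scale (SE 0.08, adjusted p = 3.6e-11). The 30 targets had a median of -0.09, and the medians were -0.02 for subunits, 0.00 for inhibitors, -0.03 for kinases, 0.08 for adaptors, -0.03 for receptors and -0.03 for brakes, beside 0.00 over all genes. *Cxcl10* is also a known target of interferon signalling. Markers of cell types differed between activated genotypes too, at an adjusted p under 0.05: of 9 astrocyte markers tested 4 were higher and 2 lower in *SOD1G93A* cells (median 0.08), of 7 oligodendrocyte lineage markers 1 was higher and 1 lower, and 1 marker each of endothelial cells, of pericytes and fibroblasts, and of neurons was lower. Their part in the values of the members and of *Cxcl10* was not tested.

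In LPS-treated microglia 0 of 10 members were called between genotypes with limma, as were 0.0% of the 10679 genes tested. At an unadjusted p under 0.05 there were 3 members and 930 genes, and DESeq2 called 3 genes and edgeR 0, again with 0 members. Libraries did not overlap for 4 of 10 members (*Rela*, *Nfkbia*, *Nfkbib* and *Nfkbie*), all lower in *SOD1G93A* cells, against 971 of the 10679 genes that were lower without overlap and 18.2% in either direction. *Nfkbie* had 617, 663 and 630.3 WT and 477, 530.1 and 276 *SOD1G93A* normalized counts. Replicate 3 was by far the lowest, and the log2 fold change was -0.63 (95% interval -1.12 to -0.14, adjusted p = 0.571) with it and -0.34 (adjusted p = 0.855) without it. *Nfkbib* had 2427, 2040.0 and 2030.3 WT and 1771, 1841 and 1036 *SOD1G93A* normalized counts. The same replicate was again the lowest of *Nfkbib*, with a log2 fold change of -0.52 (95% interval -0.997 to -0.05, adjusted p = 0.573) with it and -0.26 (adjusted p = 0.889) without it. *Rela* had 2195, 2422 and 2326 WT and 2021, 2065 and 1561 *SOD1G93A* normalized counts. Its log2 fold change was -0.31 (95% interval -0.60 to -0.02, adjusted p = 0.573), and -0.18 without replicate 3.

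*Nfkbia* in LPS-treated microglia had 2730.3, 2418 and 2308 WT and 2290.4, 2263 and 1707 *SOD1G93A* normalized counts, with a log2 fold change of -0.26 that was -0.12 without *SOD1G93A* replicate 3. *Nfkb2* had 3504, 3806 and 3800.1 WT and 3499, 3528 and 2410.0 *SOD1G93A* normalized counts. The genotypes overlapped for *Nfkb2* in normalized counts, though not in CPM, and its log2 fold change of -0.26 was -0.07 without that replicate, and that of *Bcl3* was -0.34 with it and -0.16 without it. *Nfkb1*, *Rel* and *Nfkbiz* were between 0.01 and 0.06, with *Rel* at -0.27 without WT replicate 1, and *Relb* was at -0.25. In replicate 3 the microglia markers summed to 5268 CPM, against 3699 and 3572 CPM in the fellow *SOD1G93A* replicates, and the oligodendrocyte lineage markers to 248 CPM, against 149 and 152 CPM. Over the comparison the 10 microglia markers had a median log2 fold change of 0.36, with 3 at an unadjusted p under 0.05, 0 called by limma and edgeR and 1 by DESeq2. The part of these differences in the member values was not tested. The list medians were -0.25 for subunits, -0.34 for inhibitors, 0.00 for kinases, -0.06 for adaptors, -0.05 for receptors, -0.13 for brakes and -0.30 for the 29 targets tested, beside 0.01 over all genes. Of the 78 other pathway genes tested limma, DESeq2 and edgeR each called 0, with 13 at an unadjusted p under 0.05.

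Whether activation itself differed between astrocyte genotypes was tested as an interaction over the 12 astrocyte libraries. With limma 0 of 10 members were called, and 0.0% of the 12269 genes tested; at an unadjusted p under 0.05 there were 2 members and 1018 genes, and DESeq2 called 22 genes and edgeR 4, with 0 members. *Nfkbia* had a log2 response of 4.54 in WT and 3.97 in *SOD1G93A* astrocytes. The difference of -0.57 (95% interval -0.996 to -0.15, adjusted p = 0.413) did not pass, and the quiescent values of both genotypes are those given above. *Bcl3* responded by 5.99 in WT and 5.06 in *SOD1G93A* astrocytes, a difference of -0.93 (95% interval -1.78 to -0.08, adjusted p = 0.547) that rests on few quiescent reads. *Rel* responded by 1.39 in WT and 0.44 in *SOD1G93A* astrocytes. Its difference of -0.95 (SE 0.75) was -0.05 without WT quiescent replicate 1 and -1.47 without replicate 3. *Nfkbie*, *Nfkbiz* and *Nfkb1* had differences of -0.40, -0.29 and -0.20, *Nfkb2* and *Nfkbib* of 0.16 and 0.25, and *Rela* and *Relb* of -0.05 and -0.01. *Relb*, for one, responded by 2.92 in WT and 2.91 in *SOD1G93A* astrocytes. Medians of the differences were -0.05 for subunits, -0.40 for inhibitors, -0.12 for kinases, 0.00 for adaptors, 0.07 for receptors, -0.10 for brakes and -0.53 for targets, beside 0.00 over all genes. Marker lists moved here too, with a median of -0.73 over 9 microglia markers, 3 of them at an unadjusted p under 0.05, and of 0.43 over 10 astrocyte markers, 5 of them so; limma, DESeq2 and edgeR called 0 of either list, and the part of these cells was not tested. Of the 77 other pathway genes tested limma and edgeR called 0 and DESeq2 1, with 11 at an unadjusted p under 0.05.

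**Figure D3:**
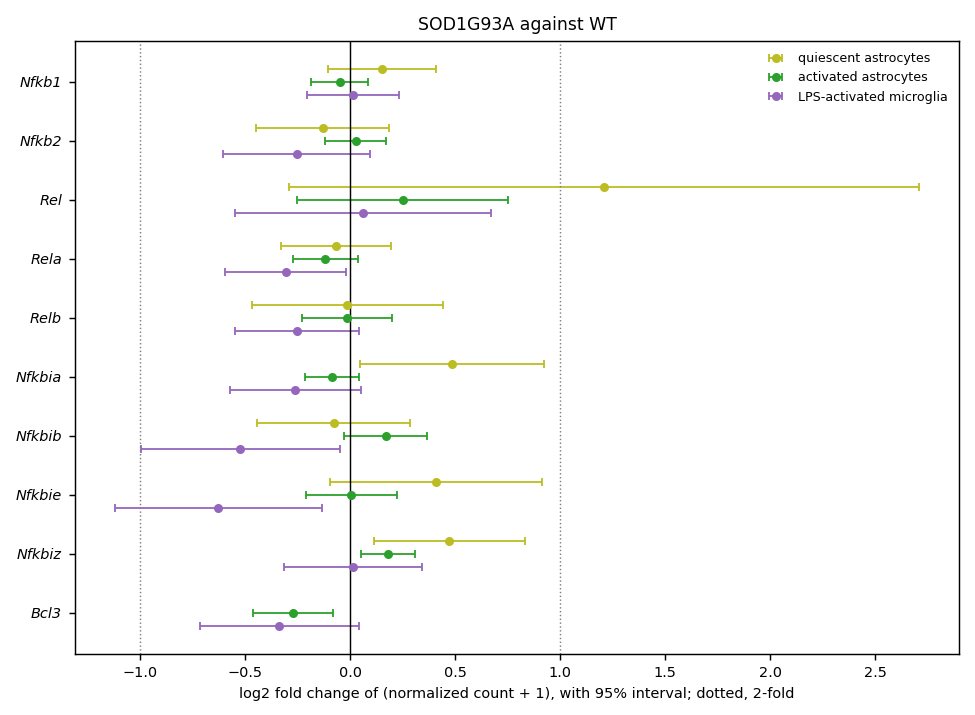
Log2 fold change of each member between *SOD1G93A* and WT cells in quiescent astrocytes, activated astrocytes and LPS-treated microglia, with 95% intervals from 3 libraries a group. *Bcl3* was not tested in quiescent astrocytes. No member passed the test, and *Rel* in quiescent astrocytes has the widest interval (-0.29 to 2.71).

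Each member was also compared with the 11235 genes of at least 5 CPM on average by the Pearson correlation of log2 CPM over the 21 libraries, a description without a test, since the libraries share cell type and state. *Nfkbia* and *Bcl3* were each other's closest genes (r = 0.996), and both were close to the metal transporter gene *Slc11a2* (0.995 and 0.993). *Relb* was closest to *Nfkbia* (0.988) and *Bcl3* (0.987), so that these 3 members had profiles near one another. All 3 were called as responding more in astrocytes, *Relb* not with the replicate number as a block. *Nfkb1* was closest to *Btg1* (0.991) and *Gch1* (0.987), *Nfkb2* to *Ppap2a* (0.993) and *Car13* (0.993), and *Rela* to *Ifnar2* (0.988) and *Plk2* (0.988). *Rel*, low in astrocytes and high in microglia, was closest to *Slc43a3* (0.981) and *Helz2* (0.980). Among the inhibitors, *Nfkbib* was closest to *Ppp1r15a* (0.993) and *Por* (0.988), *Nfkbie* to *Nfil3* (0.977) and *Phlda1* (0.976), and *Nfkbiz* to the interferon-inducible GTPase genes *Gbp5* (0.984) and *Gbp2* (0.980). Values for *Nfkbie* were thus the lowest of the members.

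Members lie on 7 chromosomes, with *Nfkb2* and *Rela* both on chromosome 19 and *Relb*, *Nfkbib* and *Bcl3* on chromosome 7. In the GENCODE annotation used for positions, exons of *Nfkb2* overlap those of *Psd* (299 bases) and of a non-coding transcript (531 bases) on the opposite strand, exons of *Nfkbib* those of *Ccer2*, and exons of *Bcl3* those of an antisense transcript. *Psd*, which the tables hold, averaged 6.77 CPM in WT quiescent and 8.05 CPM in WT activated astrocytes, and 1.03 CPM in quiescent and 4.29 CPM in LPS-treated WT microglia. In the same groups *Nfkb2* averaged 31.1, 128, 80.9 and 609 CPM. *Ccer2* and the non-coding transcripts are not in the tables. The libraries were prepared with a kit that keeps the strand, but whether the counting used it is not given in the sources used here, so that reads of these genes cannot be told apart from those of the members.

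Since most members rose in both activations, their promoter windows were searched for the κB decamer, the consensus of NF-κB binding sites, on both strands. RefSeq windows on GRCm38.p6, from 250 bases before to 50 bases after a gene start, were at hand for 7 of the 10 members, with 3 starts for *Nfkb2* and 9 windows in all; those of *Nfkb1*, *Relb* and *Nfkbiz* were not used here. Of these, 5 members and 7 windows held a match, while of all 32851 windows 1480 did (4.51%), and 182 (0.554%) held 2 or more. *Nfkb2* had matches at -39 and -11 bases from its first start, at -236 and 10 bases from its second start and at -225 bases from the last one, whose window overlaps the second and shares a match with it. *Rel* had its match at -92, *Nfkbia* at -29, *Nfkbie* at -106 and *Bcl3* at 2 bases from the start. At -39 in *Nfkb2* and at -92 in *Rel* the decamer matches on both strands and overlaps a further match shifted by 1 base. The windows of *Rela* and *Nfkbib* held none. That of *Nfkbib*, chr7:28766595-28766894 on the minus strand, lies inside the gene, which starts at 28767512 in GENCODE. The GENCODE start of *Nfkbib* was thus not searched. A match describes these letters alone, and binding was not measured. The windows with matches follow 5′ to 3′ on the strand of the gene, with the matching bases in capitals and without the overlapping last window of *Nfkb2*. They lie at chr19:46304487-46304786 and chr19:46305445-46305744 (*Nfkb2*, plus strand), chr11:23770920-23771219 (*Rel*, minus strand), chr12:55492598-55492897 (*Nfkbia*, minus strand), chr17:45555450-45555749 (*Nfkbie*, plus strand) and chr7:19822706-19823005 (*Bcl3*, minus strand).
Nfkb2 start 1: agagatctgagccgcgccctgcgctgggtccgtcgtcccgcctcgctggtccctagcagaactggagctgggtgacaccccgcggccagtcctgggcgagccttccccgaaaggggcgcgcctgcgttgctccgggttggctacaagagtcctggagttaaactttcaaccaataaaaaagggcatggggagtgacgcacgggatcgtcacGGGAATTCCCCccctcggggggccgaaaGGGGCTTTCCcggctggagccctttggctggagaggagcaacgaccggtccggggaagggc
Nfkb2 start 2: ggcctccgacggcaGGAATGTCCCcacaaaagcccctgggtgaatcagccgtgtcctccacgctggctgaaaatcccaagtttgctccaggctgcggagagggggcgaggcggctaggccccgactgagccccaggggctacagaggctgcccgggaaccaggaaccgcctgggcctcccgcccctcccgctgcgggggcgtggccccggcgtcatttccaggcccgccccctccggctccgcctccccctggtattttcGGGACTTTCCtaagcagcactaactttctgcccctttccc
Rel: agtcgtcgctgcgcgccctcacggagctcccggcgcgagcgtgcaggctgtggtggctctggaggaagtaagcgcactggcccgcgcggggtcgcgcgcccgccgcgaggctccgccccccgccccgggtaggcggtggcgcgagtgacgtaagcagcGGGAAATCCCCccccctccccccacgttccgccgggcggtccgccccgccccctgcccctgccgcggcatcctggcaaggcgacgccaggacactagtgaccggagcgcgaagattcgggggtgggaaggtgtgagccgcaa
Nfkbia: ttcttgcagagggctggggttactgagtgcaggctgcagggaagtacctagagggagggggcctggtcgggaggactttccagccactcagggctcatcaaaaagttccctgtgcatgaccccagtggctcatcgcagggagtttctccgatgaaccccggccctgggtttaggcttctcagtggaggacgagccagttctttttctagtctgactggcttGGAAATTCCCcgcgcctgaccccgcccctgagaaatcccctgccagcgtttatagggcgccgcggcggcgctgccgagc
Nfkbie: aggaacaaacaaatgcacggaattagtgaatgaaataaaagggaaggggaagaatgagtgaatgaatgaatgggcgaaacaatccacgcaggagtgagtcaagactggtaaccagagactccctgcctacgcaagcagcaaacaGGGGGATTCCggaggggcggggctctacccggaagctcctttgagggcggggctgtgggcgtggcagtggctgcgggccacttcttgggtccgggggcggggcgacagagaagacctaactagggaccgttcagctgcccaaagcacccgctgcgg
Bcl3: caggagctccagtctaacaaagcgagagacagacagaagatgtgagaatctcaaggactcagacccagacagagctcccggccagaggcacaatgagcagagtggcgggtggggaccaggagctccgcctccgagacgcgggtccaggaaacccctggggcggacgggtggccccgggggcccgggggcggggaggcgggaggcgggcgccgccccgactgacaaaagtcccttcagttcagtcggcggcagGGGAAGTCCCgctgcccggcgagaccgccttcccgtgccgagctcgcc

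**Figure D4:**
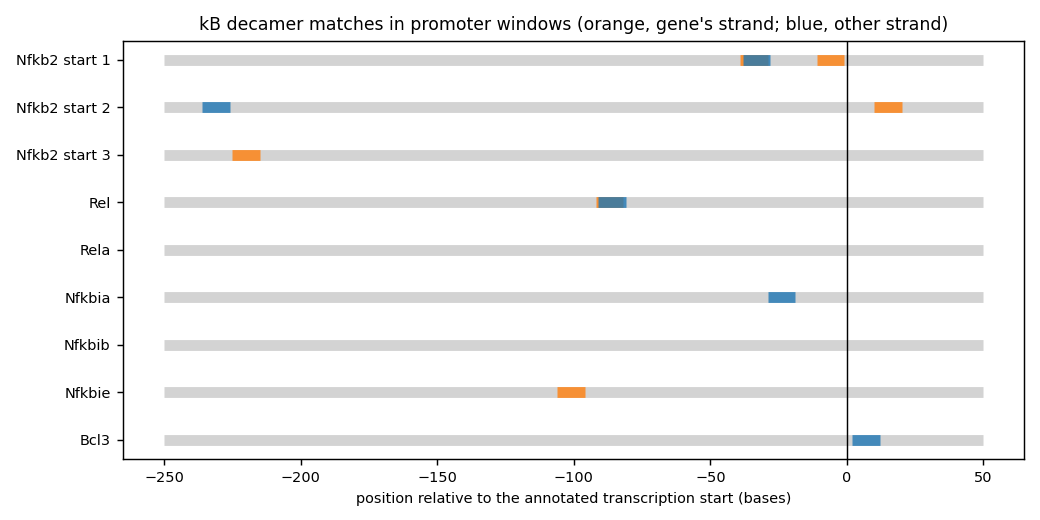
Promoter windows of the members, from 250 bases before to 50 bases after each start, with matches to the κB decamer marked on the gene's strand and on the other strand. Of 9 windows 7 hold a match.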

How the data were processed

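The authors aligned paired-end reads of poly-A libraries to the mouse build mm10 with STAR 2.7.3a, used RSEM for the reads of each gene, and deposited a table for each of 6 comparisons of 3 against 3 libraries, in the unit of a normalized signal: read counts divided by DESeq2 size factors. Their own comparison columns (mean, log2 fold change, standard error, statistic, p and adjusted p) and the table of quiescent WT against LPS-treated *SOD1G93A* microglia were not used for tests. Each column was a multiple of its smallest step (100% of values within 0.02 of a whole number), so reads were recovered; libraries held 2016139 to 11570122 reads. Pairs of replicates varied more than counting alone gives.

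The main test, across all genes averaging 10 or more normalized counts in the 6 libraries compared, was limma 3.58.1 with an intensity trend (R 4.3.3) on log2(normalized count + 1), with Benjamini-Hochberg adjustment over all genes tested; a call needs an adjusted p under 0.001 and more than 2-fold. Differences of responses were fitted over 12 libraries after median-of-ratios scaling of the recovered reads. Alternatives were pseudocounts of 0.5 and 5, other filters, quantile and TMM scaling, no trend, DESeq2 1.42.0, edgeR 4.0.16, a looser call (adjusted p under 0.05), a block for replicate number, and each library left out. The code was tested on simulated data. Levels are CPM, per kilobase where genes are compared, with exon lengths and positions from GENCODE M21 on GRCm38. Tables and figures were made with Python 3.11.15 and pandas 2.3.3.

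The text names all 10 members, from each pathway list the called genes, up to the 5 with the largest change, and, beside overlapping genes and markers, for each member the 2 genes of highest correlation; *Ccnd1* and, in the difference of responses, *Ptx3* and *Lcn2* were picked with their values in view. The lists hold subunits, the IκB family, IKK and upstream kinases, receptor adaptors and ubiquitin ligases, receptors of the stimuli, other brakes, textbook targets, and markers of 6 cell types. Members and lists were chosen with earlier results of these data known.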

Additional observations from a re-analysis of the deposited data

Results flagged for a closer look

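A difference between the LPS response of WT microglia and the cytokine response of WT astrocytes, tested as an interaction over 12 libraries, passed for 6 members, and each is given here as log2 response in microglia minus that in astrocytes. The response was larger in microglia for *Nfkbib* (2.15), *Nfkbiz* (1.24) and *Nfkb2* (1.09). It was larger in astrocytes for *Bcl3* (-2.25), *Nfkbia* (-1.64) and *Relb* (-1.15). With the replicate number as a block *Relb* and *Nfkbiz* did not pass, and with a pseudocount of 5 the value of *Bcl3*, whose quiescent astrocyte counts rest on 1, 2 and 8 reads, was -1.30. Cell type, stimulus, medium, purification, tissue and age of the mice cannot be told apart.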

How the results depend on the processing

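Of 1210 alternative values computed for the members, 1161 kept their direction and their side of the limits, 8 lost a call, 4 gained one and 37 changed sign. All sign changes were in genotype comparisons or their interaction with state, where no member was called. The 4 gained calls all came from the looser call, which drops the fold limit and raises the p limit. The looser call, limma without a trend and the replicate block keep the main log2 value. Those settings could therefore not change a direction. The sign changes with another method were as follows. With quantile normalization the log2 fold change of *Nfkb2* between activated genotypes was -0.00189. With DESeq2 and edgeR it was 0.00413 and 0.00998 for *Relb* and -0.00043 and -0.00345 for *Nfkbie* between activated genotypes, and 0.03128 and 0.01565 for *Relb* in the interaction of genotype and state; the cause was not tested. With each library left out in turn the values ran, between genotypes in quiescent astrocytes *Rela* from -0.14 to 0.032, *Relb* from -0.080 to 0.047, *Nfkbib* from -0.17 to 0.044; between genotypes in activated astrocytes *Nfkb2* from -0.019 to 0.051, *Relb* from -0.12 to 0.068, *Nfkbie* from -0.061 to 0.056; between genotypes in LPS-treated microglia *Nfkb1* from -0.038 to 0.041, *Rel* from -0.27 to 0.29, *Nfkbiz* from -0.081 to 0.15; and in the interaction *Rela* from -0.16 to 0.029, *Relb* from -0.11 to 0.078. Leaving out a library gave 7 to 8 members called in astrocyte activation, 9 in the microglia response, 6 in the difference of responses and 0 in each comparison of genotypes. Over the other alternatives the astrocyte count was 7 to 9.

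With the replicate number as a block, the counts of members called were 8 for astrocyte activation, 9 for the LPS response, 0 for each genotype comparison and the interaction, and 4 for the difference of responses, where *Relb* (adjusted p = 0.00131) and *Nfkbiz* (adjusted p = 0.00128) lost their call. Replicate numbers did not mark pairs between quiescent genotypes, where libraries of equal number had correlations of residuals of -0.40, 0.06 and -0.44, and those of unlike number up to 0.52 (WT replicate 3 with *SOD1G93A* replicate 1). In the difference of responses the values for equal numbers were 0.09, 0.05 and -0.01 in astrocytes and 0.01, 0.02 and 0.03 in microglia.

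A missed limit in a comparison of genotypes does not show that values are equal. *Bcl3* in quiescent astrocytes and *Rel* in all astrocyte groups rest on few reads. *SOD1G93A* LPS replicate 3 and WT quiescent astrocyte replicate 1 weigh on the comparisons that use them. No result tells cell number from RNA per cell.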
